A study of Mus musculus with 6 samples.

Results

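Complex I is represented in the expression table of these mouse CD8 T cells by 53 genes of 13883, chosen by symbol as every gene whose name begins with Nduf or mt-Nd. They comprise 7 nuclear core subunits, 29 nuclear accessory subunits, 7 subunits encoded by mitochondrial DNA and 8 assembly factors. The remaining 2 carry an Nduf name without being complex I subunits today: Ndufa4, now assigned to complex IV, and the pseudogene Ndufa12-ps. The cells were wild-type CD8 T cells from spleen and lymph nodes, activated through CD3 and CD28 with antibodies, and 100000 cells went into each library. All libraries carry the same batch label (Az). One group of 3 libraries came from cells kept overnight with 20 mM NaCl, the control, and the other group of 3 from cells kept overnight with 20 mM DAHB, a compound given in the labels by this abbreviation. The age and sex of the mice and the number of mice behind each library are not given in the labels, so p-values measure the spread between these libraries, which may be technical.

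Complex I (NADH:ubiquinone oxidoreductase) is the entry point of the respiratory chain: it passes electrons from NADH to ubiquinone and pumps protons across the inner mitochondrial membrane. Its core subunits carry the flavin, the iron-sulphur clusters, the quinone site and the proton channels. The accessory subunits surround and stabilise this core, and assembly factors build the intermediate modules without remaining in the finished enzyme. The NADH-oxidising (N) and quinone-reducing (Q) modules form the arm in the matrix, and the proximal and distal parts form the arm in the membrane. T cells increase mitochondrial mass and respiration on activation. The roles given here come largely from human and bovine complex I.

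The promoters of 4 nuclear members are shown because they carry the pattern described in the results: Ndufv3 rose most, Ndufs3 fell most among members with an entry in the sequence table, Ndufaf1 is the assembly factor that fell most, and Ndufa11 holds the NRF1 motif. Each is the 250 bases before the RefSeq start on build GRCm38.p6, written 5′ to 3′ on the gene's strand, and the capitals mark the searched motifs. Ndufv3 lies at chr17:31519865-31520114 on the plus strand, Ndufs3 at chr2:90904722-90904971 on the minus strand, Ndufaf1 at chr2:119662835-119663084 on the minus strand and Ndufa11 at chr17:56717512-56717761 on the plus strand. The first 20 bases after the start were found near the beginning of a GENCODE transcript for Ndufv3 and Ndufs3. They were not found there for Ndufaf1 and Ndufa11. The Ndufs3 window also reaches into the annotated gene, which extends to base 90904827.
Ndufv3: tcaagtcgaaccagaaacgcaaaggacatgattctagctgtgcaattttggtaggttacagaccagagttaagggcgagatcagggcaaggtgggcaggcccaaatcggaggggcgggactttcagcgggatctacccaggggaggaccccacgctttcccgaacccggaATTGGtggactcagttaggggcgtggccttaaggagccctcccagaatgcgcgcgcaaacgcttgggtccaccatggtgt
Ndufs3: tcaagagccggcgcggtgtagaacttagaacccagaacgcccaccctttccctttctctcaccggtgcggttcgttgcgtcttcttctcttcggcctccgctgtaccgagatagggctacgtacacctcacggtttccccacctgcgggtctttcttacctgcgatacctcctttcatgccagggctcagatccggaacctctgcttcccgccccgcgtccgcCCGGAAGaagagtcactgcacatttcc
Ndufaf1: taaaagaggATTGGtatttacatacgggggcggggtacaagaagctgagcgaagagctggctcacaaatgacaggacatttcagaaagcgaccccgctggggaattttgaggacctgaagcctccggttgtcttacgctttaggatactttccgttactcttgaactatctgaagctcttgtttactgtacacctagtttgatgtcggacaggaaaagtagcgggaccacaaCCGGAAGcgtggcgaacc
Ndufa11: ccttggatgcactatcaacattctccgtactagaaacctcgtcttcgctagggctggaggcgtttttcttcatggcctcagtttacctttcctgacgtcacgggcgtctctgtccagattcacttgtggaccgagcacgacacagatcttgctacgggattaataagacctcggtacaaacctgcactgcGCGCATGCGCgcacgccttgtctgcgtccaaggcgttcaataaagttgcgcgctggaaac
The motifs searched on both strands were the NRF1 motif, the YY1 motif, CCGGAAG for GABPA and other ETS factors, CCAAT for NF-Y and TGATGNAA for ATF4 and C/EBP; no 2 of them overlap in the sequences shown. Of the 40 members with a promoter entry, 7 (17.5%) held the NRF1 motif, against 9.3% of the 10193 genes of the table with an entry and 3.7% of all 32851 single promoters of the same length. A member or gene counts if any of its promoters holds the motif, so only the last share is per promoter. The ETS letters stood in 5 (12.5%), against 15.8% and 6.9%, and CCAAT stood in 14 (35.0%), against 40.7% and 33.8%. The YY1 and ATF4 motifs were in 0 of the 40 members, and in 1.3% and 2.4% of the genes of the table with an entry. Of the 7 members with the NRF1 motif, Ndufa11 was called higher and 6 were not called. Of the 14 with CCAAT, 2 were called higher and 6 lower, and of the 5 with the ETS letters 1 was higher and 2 lower. Over all genes tested, 29.4% were called higher and 29.1% lower. Within the abundance range of the nuclear subunits, 1687 of 6688 genes were higher and 2804 lower. The motif groups were not tested.

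The table holds 6 libraries of 31055613 to 56007582 reads, and NaCl replicate 3 was the deepest. The cell type named in the labels was present: the summed level of 8 CD8 T cell genes ran from 83383 to 84804 normalised counts with NaCl and from 81795 to 85242 with DAHB. Single genes of the 8 did move, as 3 were called higher with DAHB and 3 lower. The group mean of Cd8a went from 12729 with NaCl to 19112 with DAHB, and that of Cd5 from 28287 to 19312. Markers of other cells were low and mostly higher with DAHB. Their summed level was 605 to 618 against 1514 to 1818 for 2 of 3 CD4 T cell genes. Most of that sum was Zbtb7b, at group means of 602 against 1574, while Cd4 itself was at 11.6 against 65.5. The level was 118 to 149 against 549 to 623 for Cd79b, the 1 of 5 B cell genes analysed. For 6 of 6 myeloid genes the sum was 617 to 1142 against 1265 to 1614. The natural killer and erythroid genes had no row among the genes analysed. The part of these markers in the results was not tested, and in bulk RNA fewer cells of a type and less RNA per cell cannot be told apart.

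DAHB did not move the complex I transcripts in 1 direction. With NaCl as the control, 13 members were higher and 13 were lower with DAHB, and 27 were not called (limma-trend, Benjamini-Hochberg adjusted p under 0.05 over 13804 genes). The called share, 49.06%, stands beside 58.5% of all genes tested, of which 29.4% were called higher and 29.1% lower. The median log2 fold change was -0.04 over the members and 0.00 over all genes. Changes were small: only Ndufv3 was both called and at least 1.5-fold changed, whereas 23.2% of all genes tested were. The groups did not overlap for 24 members, against 63.4% of all genes. Of the 6688 genes within the abundance range of the nuclear subunits, 1687 were higher and 2804 lower, with a median of -0.08. In this range 943 genes changed at least 1.5-fold, called or not. Fold changes are on the log2(normalised count + 1) scale and are relative to the bulk of genes, because each library was divided by a size factor.

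**Figure D1:**
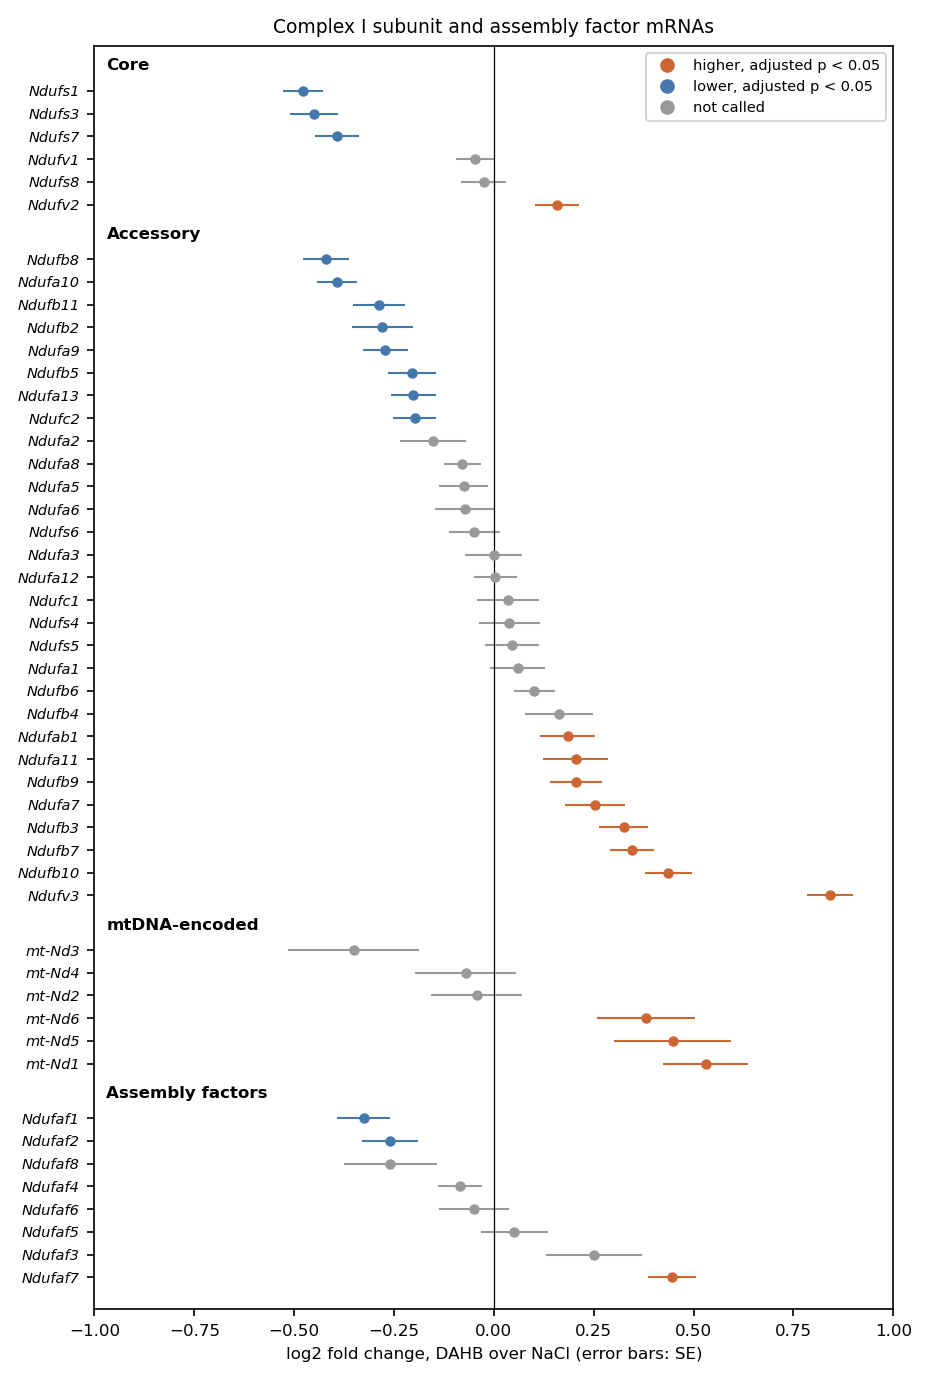
Log2 fold change of DAHB over NaCl (x axis) for the core, accessory and mitochondrially encoded subunits and the assembly factors, with 3 libraries a group; points are estimates, bars are standard errors and colours give the call. Ndufv3 stands farthest right at 0.84 and Ndufs1 farthest left at -0.48; mt-Nd4l, at a few counts, and 1 core subunit are left out.

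Among the 7 nuclear core subunits, which carry the redox centres, 3 fell, 1 rose and 3 were not called, with a median log2 fold change of -0.11. The called share was 57.1%, beside 58.5% of all genes tested (29.4% higher and 29.1% lower). Ndufs1 (ENSMUSG00000025968, chromosome 1, bases 63143596 to 63176833, minus strand, GRCm38), the iron-sulphur subunit of the N module, was at 4421, 4359 and 4294 normalised counts with NaCl and at 3040.4, 3014 and 3339 with DAHB. All DAHB libraries were below all NaCl libraries, and the mean went from 4358 ± 63.3 to 3131 ± 181 (SD, n = 3 each). The log2 fold change was -0.48 with a standard error of 0.049 (adjusted p = 1.64e-06). Ndufs3 (chromosome 2, bases 90894634 to 90904827, minus strand), a core subunit of the Q module whose promoter is printed above, had 2168, 2045 and 2158 with NaCl and 1428, 1604 and 1637 with DAHB. Its groups did not overlap either, and it fell by 0.45 on the log2 scale (SE 0.060, adjusted p = 1.78e-05). Ndufs7, which helps to form the quinone site and holds the last iron-sulphur cluster before it, was at 2096, 1897 and 2084 against 1547, 1511 and 1568. The DAHB values lay close together beneath the control range, and the change was -0.39 on the log2 scale (SE 0.055, adjusted p = 2.77e-05).

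Ndufv2, an iron-sulphur subunit of the N module, went the other way. It was at 3162, 2981 and 3168 with NaCl and at 3197, 3616 and 3597 with DAHB, and the lowest DAHB library was only just above the highest control. The log2 fold change was 0.16 (SE 0.055, adjusted p = 0.0230). This call was lost without NaCl replicate 2 (0.13, adjusted p = 0.092), without DAHB replicate 2 (0.13, adjusted p = 0.082) and without DAHB replicate 3 (0.13, adjusted p = 0.105).

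Ndufv1 and Ndufs8 overlapped between groups. Ndufv1, which binds the flavin and NADH, was at 4683, 4368 and 4779 against 4325, 4618 and 4439.5 (-0.05, SE 0.048, adjusted p = 0.429). Ndufs8, which holds a pair of iron-sulphur clusters of the Q module, was at 2447, 2186 and 2299 against 2154, 2389 and 2267 (-0.03, SE 0.057, adjusted p = 0.726). After the values of each library were corrected for GC content and exon length, both were called lower, at -0.28 and -0.16. Over the 7 core subunits 6 were then lower and 1 was higher. Of 13776 genes fitted this way, 4563 were higher and 3969 lower. The core subunits together took 0.0721% ± 0.00268 of reads with NaCl and 0.0649% ± 0.00158 with DAHB (SD, n = 3 each). Every DAHB library was below every control library, and the exact two-sided permutation p was 0.1, the smallest that 3 against 3 libraries allow.

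**Figure D2:**
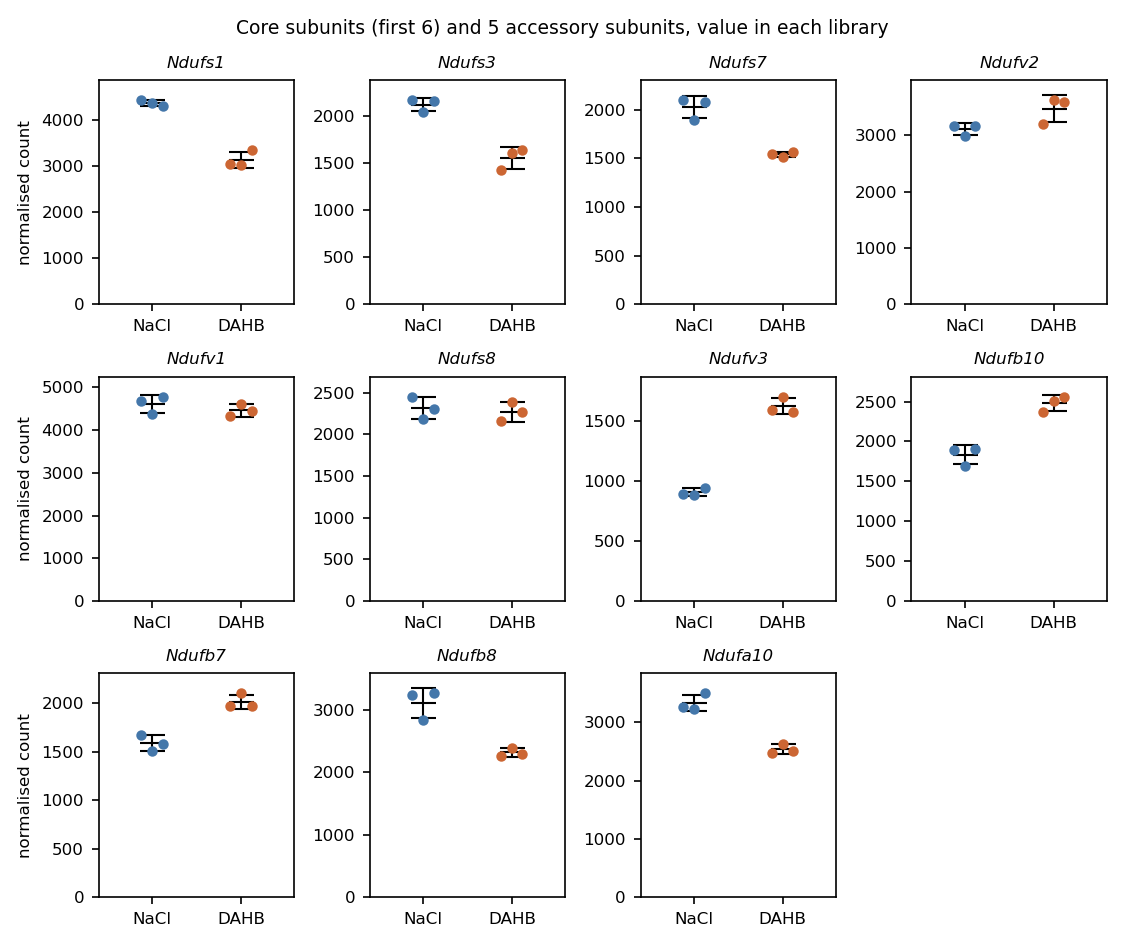
Normalised count (y axis, from 0) in each library of 6 core subunits and of Ndufv3, Ndufb10, Ndufb7, Ndufb8 and Ndufa10; points are libraries, the horizontal marks are the mean and 1 SD either side. The DAHB points of Ndufs1, Ndufs3, Ndufs7, Ndufb8 and Ndufa10 all lie below the NaCl points, and those of Ndufv2, Ndufv3, Ndufb10 and Ndufb7 all lie above.

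The accessory subunits divided evenly: 8 of 29 rose, 8 fell and 13 were not called, with a median log2 fold change of 0.00. The called share was 55.2%, beside 58.5% of all genes tested (29.4% higher and 29.1% lower). Ndufv3 (ENSMUSG00000024038, chromosome 17, bases 31520115 to 31531331, plus strand), a peripheral subunit of the N module, was at 893, 881 and 943 normalised counts with NaCl and at 1593, 1702 and 1578 with DAHB. No other member changed as much. The mean went from 906 ± 33.2 to 1624 ± 67.9 (SD, n = 3 each); the change was 0.84 on the log2 scale (SE 0.058, adjusted p = 3.2e-08).

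Several subunits of the distal membrane arm rose. Ndufb10, which faces the intermembrane space, was at 1894, 1695 and 1910.2 with NaCl and at 2368, 2513 and 2559 with DAHB, with well separated groups (0.44, SE 0.058, adjusted p = 1.69e-05). Ndufb7, another subunit on the intermembrane-space side, was at 1671, 1509.7 and 1584 against 1972, 2103 and 1974 (0.34, SE 0.055, adjusted p = 9.98e-05). Ndufb3, a membrane-spanning subunit of the same arm, was at 1183, 1139 and 1305 against 1466, 1504 and 1569 (0.33, SE 0.062, adjusted p = 4.37e-04). In each of these the lowest DAHB library exceeded the highest control. Ndufa7, of the N module, had 1166, 1026 and 1276 with NaCl and 1326, 1455 and 1341 with DAHB (0.25, SE 0.075, adjusted p = 0.0100). Its groups were separate but close, and the call was lost without NaCl replicate 2 (0.17, adjusted p = 0.0551).

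The remaining rises were smaller. Ndufb9 of the distal arm changed by 0.21 (adjusted p = 0.0139), Ndufa11, which sits at the contact with complex III in supercomplexes, by 0.20 (adjusted p = 0.0422), and Ndufab1, the mitochondrial acyl carrier protein present in both arms, by 0.18 (adjusted p = 0.0326). Libraries of the 2 groups overlapped for Ndufa11 and Ndufab1. Each of the 3 lost its call when at least 1 single library was left out. With the GC and length correction Ndufa11 turned to -0.06 and Ndufb9 was at 0.05 and not called.

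Falls of similar size occurred in the same arm. Ndufb8, a distal-arm subunit, was at 3232, 2841 and 3265 with NaCl and at 2269, 2396 and 2296 with DAHB (-0.42, SE 0.058, adjusted p = 2.32e-05). Ndufa10, a matrix-facing subunit with a nucleoside kinase fold, was at 3268, 3232 and 3496 against 2475, 2635 and 2501 (-0.39, SE 0.050, adjusted p = 1.14e-05). Both were clearly separated between groups. Ndufb11 of the distal arm was at 2709, 2544 and 2659 against 1961, 2395 and 2146 (-0.29, SE 0.065, adjusted p = 0.00169). Ndufb2 of the distal arm was at 763, 787 and 767 against 569.7, 661 and 683 (-0.28, SE 0.077, adjusted p = 0.00615). Ndufa9, a nucleotide-binding subunit of the Q module, was at 5559, 5227 and 5594 against 4169, 4876 and 4539 (-0.27, SE 0.056, adjusted p = 8.49e-04). None of these 5 overlapped between groups. Ndufb2 lost its call with the GC and length correction (-0.11, adjusted p = 0.166). Ndufb5 of the distal arm and Ndufa13 and Ndufc2 of the proximal arm fell by 0.21, 0.20 and 0.20 on the log2 scale, and none of these 3 was called with quantile normalisation (adjusted p = 0.0802, 0.0609 and 0.161). Of the called subunits, Ndufs3 shares 17.9% of its 50-base stretches with other annotated genes, Ndufb11 17.5%, Ndufb9 15.6%, Ndufa13 28.5% and Ndufb5 11.2%, so part of their reads is uncertain.

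The 13 accessory subunits that were not called ran from -0.15 for Ndufa2 to 0.16 for Ndufb4. They include Ndufs4 and Ndufs6, which join late with the N module (0.04 and -0.05), Ndufa12 (0.00) and Ndufa1 (0.06). The rest were Ndufa8 (-0.08), Ndufa5 (-0.08), Ndufa6 (-0.07), Ndufa3 (-0.00), Ndufc1 (0.04), Ndufs5 (0.05) and Ndufb6 (0.10). Ndufa4, the complex IV subunit with an Nduf name, was at 3133 ± 71.2 and 3255 ± 274 normalised counts (0.05, adjusted p = 0.475), and Ndufa12-ps, which shares 78.8% of its 50-base stretches with Ndufa12, was at 18.9 ± 2.91 and 19.3 ± 4.23 (SD, n = 3 each). By position in the enzyme, 3 of 10 nuclear subunits of the N module were higher and 1 lower, 0 of 6 in the Q module were higher and 3 lower, 1 of 9 in the proximal membrane arm was higher and 3 lower, and 4 of 10 in the distal arm were higher and 4 lower. Of all genes tested, 29.4% were called higher and 29.1% lower. Within the abundance range of the nuclear subunits, 1687 of 6688 genes were higher and 2804 lower. The median log2 fold change was -0.19 in the Q module and 0.13 in the distal arm. The modules were not tested against each other or against these backgrounds. All nuclear subunits together took 0.2247%, 0.2129% and 0.2304% of reads with NaCl and 0.206%, 0.2193% and 0.2137% with DAHB. The ranges overlapped (exact two-sided permutation p = 0.3), so the summed nuclear transcript did not differ beyond the spread between libraries, while single subunits were called in both directions. Reads of Ndufb10 per read of Ndufb8, both of the distal arm, were 0.586, 0.597 and 0.585 with NaCl and 1.04, 1.05 and 1.11 with DAHB. Reads of Ndufv3 per read of Ndufs1, both of the N module, were 0.202, 0.202 and 0.220 against 0.524, 0.565 and 0.472. Such ratios within a library do not depend on the size factor; both pairs were chosen after their values were seen and are given as a description.

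Of the 8 assembly factors named Ndufaf, 1 rose and 2 fell. The called share was 37.5%, beside 58.5% of all genes tested (29.4% higher and 29.1% lower). Ndufaf7, a mitochondrial methyltransferase, was at 802, 810.1 and 751 normalised counts with NaCl and at 1071, 1076 and 1069 with DAHB. The DAHB libraries were almost equal and above the controls (0.45, SE 0.060, adjusted p = 2.07e-05). Ndufaf1, which builds the proximal membrane arm, was at 1187, 1029 and 1158 against 879, 906 and 901 (-0.33, SE 0.066, adjusted p = 6.96e-04). Ndufaf2, a relative of Ndufa12 that acts late in assembly, was at 712, 703 and 762 against 578, 601 and 638 (-0.26, SE 0.070, adjusted p = 0.00571). Neither overlapped between groups. For Ndufaf2, 64.1% of its stretches of 50 bases also occur in the annotated antisense gene B230220B15Rik, and with no strand setting stated the reads of this pair cannot be told apart. The other 5 were not called: Ndufaf3 and Ndufaf4, which act on the Q module, at 0.25 and -0.08, Ndufaf5, which hydroxylates Ndufs7, at 0.05, its partner Ndufaf8 at -0.26 and Ndufaf6 at -0.05. Of 12 assembly factors with other names, 4 rose and 2 fell, a called share of 50% beside the same 58.5%. The largest were Nubpl, which supplies iron-sulphur clusters, from 310 ± 32.6 to 418 ± 51.2 (0.43, adjusted p = 0.00377), and Tmem186, a partner of Ndufaf1, from 608 ± 1.1 to 452 ± 20.7 (-0.43, adjusted p = 1.63e-04; SD, n = 3 each).

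Of the 7 subunits encoded by mitochondrial DNA, which form the membrane core and its proton channels, 3 were higher with DAHB and 0 lower. The called share was 42.9%, beside 58.5% of all genes tested (29.4% higher and 29.1% lower). The groups did not overlap for 1 of the 7, against 63.4% of all genes. The NaCl libraries varied more for these subunits than for nuclear genes. NaCl replicate 3, the deepest library, was the lowest library for all of these subunits except mt-Nd3. Subunit mt-Nd1 (ENSMUSG00000064341, mitochondrial bases 2751 to 3707, plus strand), at the junction of the arms, was at 21477, 23848 and 15963 normalised counts with NaCl and at 28749.9, 27321 and 31354 with DAHB. All DAHB libraries exceeded all controls, and the mean went from 20429 ± 4046 to 29142 ± 2045 (SD, n = 3 each; 0.53, SE 0.107, adjusted p = 6.93e-04). Without NaCl replicate 3 the log2 fold change was 0.36 and was still called.

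Subunit mt-Nd5, a proton-channel subunit at the tip of the distal arm, was at 19146, 20896 and 12182 with NaCl and at 23774, 20284 and 25646 with DAHB (0.45, SE 0.147, adjusted p = 0.0176). Subunit mt-Nd6, the only member encoded on the opposite mitochondrial strand, was at 3794, 4277 and 2741 against 4679, 4120.4 and 5097 (0.38, SE 0.122, adjusted p = 0.0152). In both, DAHB replicate 2 lay inside the control range. Neither call held with a robust prior (adjusted p = 0.207 for mt-Nd5 and 0.177 for mt-Nd6), with DESeq2 on whole reads (0.133 and 0.116) or without DAHB replicate 3 (0.0855 and 0.0814). That of mt-Nd6 was also lost without NaCl replicate 3 (0.20, adjusted p = 0.0560). With no strand setting stated, reads of mt-Nd6 cannot be told apart from reads of the other strand at the same bases.

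Subunits mt-Nd2 and mt-Nd4, both proton-channel subunits, were not called. The values of mt-Nd2 were 18846, 20399 and 13489 against 16656, 15396 and 18476 (-0.04, SE 0.114, adjusted p = 0.77), and those of mt-Nd4 were 10158, 10914 and 6884 against 8948, 7811 and 9419 (-0.07, SE 0.126, adjusted p = 0.657). The groups overlapped for both, and NaCl replicate 3 was the lowest library. Without it both were called lower, at -0.22 (adjusted p = 0.0174) and -0.28 (adjusted p = 0.00548), whereas a GC and length correction turned both positive, at 0.16 and 0.12. Subunit mt-Nd3, which has a loop beside the quinone site, was at 104, 140.4 and 158 against 105, 96.7 and 109 (-0.35, SE 0.164, adjusted p = 0.082). Subunit mt-Nd4l, a small neighbour of it in the membrane, was at a few counts, at 28.5, 8.84 and 4.99 against 14.3, 12.8 and 6.66. Annotated nuclear copies share 98.0% of the 50-base stretches of mt-Nd3, 98.8% of those of mt-Nd4l and 62.2% of those of mt-Nd4, against 8.19% for mt-Nd2, 7.61% for mt-Nd5 and none for mt-Nd1 and mt-Nd6. How reads with several matches were treated is not given in the sources used here, so the levels of mt-Nd3, mt-Nd4l and mt-Nd4 are uncertain.

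Ratios within a library removed most of this spread. Reads of mt-Nd1 per read of mt-Nd2 were 1.14, 1.17 and 1.18 with NaCl and 1.73, 1.77 and 1.70 with DAHB. Reads of mt-Nd5 per read of mt-Nd4 were 1.89, 1.92 and 1.77 against 2.66, 2.60 and 2.72. In both ratios every DAHB library was above every control, at the smallest exact two-sided permutation p the design allows, 0.1; the pairs were chosen after their values were seen. Reads of mt-Nd6 per read of mt-Nd5 were 0.198, 0.205 and 0.225 against 0.197, 0.203 and 0.199, with overlapping groups (exact permutation p = 0.3). As a share of all 13 mitochondrial mRNAs, mt-Nd2 went from 8.71% ± 0.208 to 6.36% ± 0.0848 (SD, n = 3 each). The share of mt-Nd1 went from 9.68%, 10.2% and 10.6% to 11.1%, 11.1% and 10.8%, without overlap in either. That of mt-Nd4 went from 4.597% ± 0.0579 to 3.295% ± 0.147 and that of mt-Nd3 from 0.0705% ± 0.0303 to 0.0392% ± 0.001665, also without overlap. The shares of mt-Nd5 (8.54% ± 0.445 and 8.76% ± 0.469), mt-Nd6 (1.78% ± 0.0630 and 1.75% ± 0.0658) and mt-Nd4l overlapped between groups. All 13 together took 0.580% ± 0.129 of reads with NaCl and 0.763% ± 0.0692 with DAHB, without overlap (exact two-sided permutation p = 0.1).

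**Figure D3:**
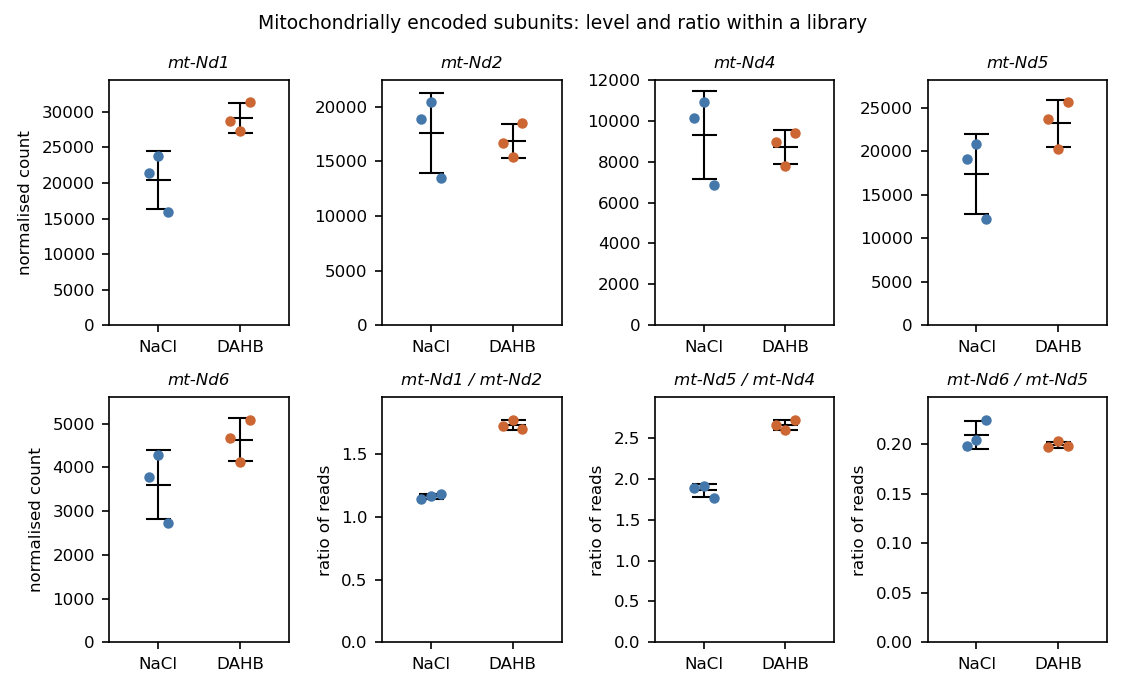
Normalised counts of mt-Nd1, mt-Nd2, mt-Nd4, mt-Nd5 and mt-Nd6 and 3 ratios of reads within a library (y axes, from 0) for each NaCl and DAHB library; points are libraries, horizontal marks are the mean and 1 SD either side. The ratio of mt-Nd1 to mt-Nd2 sits between 1.14 and 1.18 with NaCl and between 1.70 and 1.77 with DAHB, whereas the ratio of mt-Nd6 to mt-Nd5 overlaps between groups.

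The mitochondrially encoded subunits took 0.2101%, 0.2316% and 0.1472% of reads with NaCl and 0.2433%, 0.2128% and 0.2587% with DAHB. The widest exact 95% binomial interval, for DAHB replicate 3, was 0.2569% to 0.2604%, so counting error was far smaller than the spread between libraries. The groups overlapped (exact two-sided permutation p = 0.2). The ratio of mitochondrially encoded to nuclear-encoded subunit reads was 0.935, 1.09 and 0.639 with NaCl and 1.18, 0.97 and 1.21 with DAHB, a mean log2 difference of 0.36 (exact two-sided permutation p = 0.2). Leaving out NaCl replicate 3 brought that difference to 0.14. Among the 6 other mitochondrial mRNAs 3 were higher and 0 lower, beside 29.4% and 29.1% of all genes tested. Of those whose DAHB mean reached 100 normalised counts, the most changed was mt-Co1 of complex IV. It went from 111933 ± 25592 to 154685 ± 13709.8 (SD, n = 3 each), a log2 fold change of 0.49 (adjusted p = 0.00453). It shares 51.1% of its 50-base stretches with nuclear copies. The other complex IV transcript called higher, mt-Co2, had a larger change (1.07, adjusted p = 0.0256) but was at 9.87, 13.3 and 6.24 normalised counts with NaCl and at 19.8, 17.0 and 26.6 with DAHB, and it shares 100% of its stretches with nuclear copies.

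Levels per kilobase of annotated exon placed the mitochondrial transcripts above the nuclear ones, apart from mt-Nd3 and mt-Nd4l. Annotated nuclear copies share 98.0% of the 50-base stretches of mt-Nd3, 98.8% of those of mt-Nd4l and 62.2% of those of mt-Nd4. The levels of these transcripts are therefore uncertain. With NaCl the level was 21347 normalised counts per kilobase for mt-Nd1, 16935 for mt-Nd2 and 9544 for mt-Nd5. Nuclear subunits ran from 137 for Ndufb2 to 4739.8 for Ndufc2, and of the core subunits Ndufs1 was lowest at 539. Exon length here is the union of all annotated exons, 8086 bases for Ndufs1 and 5628 for Ndufb2, so a gene with long rare exons appears lower. The spread of nuclear subunit levels, as the SD of log2 counts per kilobase, was between 1.213 and 1.251 in every library.

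**Figure D4:**
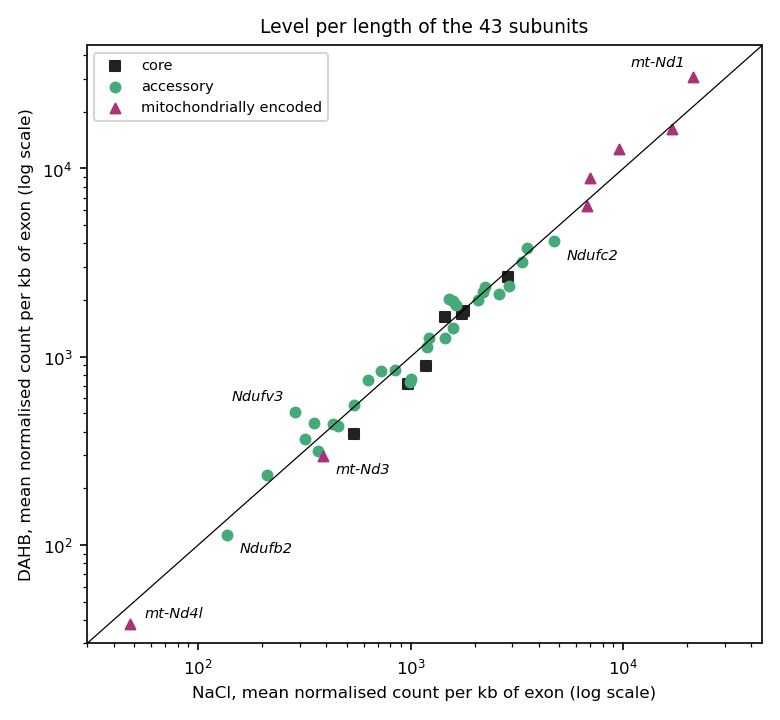
Mean normalised count per kilobase of exon with NaCl (x axis) and DAHB (y axis) of the nuclear and mitochondrially encoded subunits, both axes on a log scale; the line marks equal levels. The mitochondrial transcripts lie at the top right except mt-Nd3 and mt-Nd4l, and Ndufv3, from 284 to 509, stands above the line.

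Genes that act upstream of these transcripts were also measured. Of 21 genes of mitochondrial transcription and RNA maturation, 2 rose and 10 fell. The largest changes were in Fastkd2, an RNA-binding protein of mitochondria, from 2114 ± 29.6 to 1544 ± 184 (-0.46, adjusted p = 9.92e-05), and Supv3l1, the helicase of the mitochondrial RNA degradosome, from 2175 ± 51.6 to 1588 ± 38.1 (-0.45, adjusted p = 2.82e-06). Of 10 transcription factors of nuclear respiratory genes, 2 rose and 5 fell. They were led by Gabpb2, from 3033 ± 262 to 2244 ± 231 (-0.44, adjusted p = 1.7e-04), and Esrra, from 1273 ± 25.4 to 1695 ± 127 (0.41, adjusted p = 5.09e-05). Errors are SD over 3 libraries. The share of all genes called lower was 29.1%. Among the 6688 genes within the abundance range of the nuclear subunits, 1687 were higher and 2804 lower. Neither list was tested against these backgrounds.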

How the data were processed

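RNA of 6 libraries, 3 for each of 2 groups, was sequenced in bulk. The submitters' processing notes name Trimmomatic (version 0.36), STAR (2.5.2b), featureCounts (1.5.2), DESeq2 and the build GRCm38; the DESeq2 version, annotation release, strand setting and treatment of reads with several matches are not given in the sources used here. The authors deposited a normalised signal, which is read counts scaled by library-specific size factors. Undoing the scaling turned 100% of values into whole reads (tolerance 0.001) and gave the depths. No gene had fewer than 61 reads in all, so low genes appear to have been left out.

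The 13804 genes that reached a normalised count of 10 in 3 or more libraries, all 53 members among them, were tested on log2(normalised count + 1) with limma-trend (limma 3.58.1, R 4.3.3), two-sided, Benjamini-Hochberg threshold 0.05; this scale understates the change of low genes. All adjusted p-values come from this limma fit unless another tool is named. Shares and ratios used the exact permutation test over libraries, and binomial intervals are exact (95%) and cover counting error only. Alternatives were the pseudocount, the filter, normalisation, a robust prior, a GC and length correction, a replicate block, edgeR 4.0.16 and DESeq2 1.42.0 on whole reads, and each library left out; the code was tested on simulated data. Exon lengths, shared stretches of 50 bases and symbols came from GENCODE M21 on GRCm38 (13854 genes matched), and promoters from RefSeq on GRCm38.p6 (40 members matched). Full values are given for core (1 is not reported here) and mitochondrial subunits, the 5 largest rises and 5 largest falls among accessory subunits, called assembly factors, and of each other list up to 2 called genes, those most changed among genes whose higher group mean reached 100. Members and lists were chosen with earlier results of these data known. No replicate pair looked like 1 library deposited again: their chi-square per degree of freedom ran from 4.6 to 17.2.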

Additional observations from a re-analysis of the deposited data

How the results depend on the processing

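Of the 26 called members, 15 kept their call and sign under all 18 alternatives (Ndufs1, Ndufs3, Ndufs7, Ndufv3, Ndufb3, Ndufb7, Ndufb8, Ndufb10, Ndufb11, Ndufa9, Ndufa10, Ndufaf1, Ndufaf2, Ndufaf7 and mt-Nd1). Leaving out 1 library gave 20 to 30 called members, 7 to 17 higher and 13 to 16 lower; the higher count fell to 8 when NaCl replicate 2 was dropped and to 7 when DAHB replicate 3 was dropped, where fewer libraries were fitted. Over all genes, leaving out 1 library gave 7054 to 8077 calls among 13444 to 13701 genes tested, 3420 to 3891 higher and 3565 to 4186 lower. The GC and length correction gave 35 called members (17 higher, 18 lower), beside 8532 of 13776 genes in all. DESeq2 gave 23 (10 and 13), beside 7675 of 13883 genes in all. The cause was not tested. Of the 27 members not called, 18 were called with the same sign under at least 1 alternative. Deviations from the group mean correlated at -0.0488, -0.154 and 0.0405 between same-numbered libraries, and at -0.0667 to 0.113 between differently numbered ones. Such values cannot decide whether the replicate numbers pair the libraries. With the replicate block 26 members (13 higher, 13 lower) and 7772 genes in all were called, against 8071 without it; with the block and the GC and length correction together, 33 members were called. Paired over numbers, the mitochondrially encoded, nuclear-encoded and all-member shares and the ratio had an exact sign-flip permutation p of 0.5, where 3 pairs allow no less than 0.25. Across single libraries left out, the log2 difference of the ratio ran from 0.14 to 0.53 and of the mitochondrially encoded share from 0.11 to 0.43. That of the nuclear share ran from -0.10 to -0.04, and that of the share of all 53 members from 0.03 to 0.14. Without members sharing over 10% of their 50-base stretches, an alternative chosen after seeing the data, these kept their direction.

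Only Ndufa11 among called members changed sign, to -0.061 with the GC and length correction, also with the block. The other sign changes were among members not called. With the GC and length correction, with or without the block, Ndufaf4 was at 0.11, mt-Nd2 at 0.16, mt-Nd4l at 0.21 and mt-Nd4 at 0.12. With quantile normalisation Ndufa8 was at 0.021, Ndufaf5 at -0.012, Ndufa12-ps at -0.44, Ndufaf3 at -0.037, Ndufs6 at 0.037, Ndufs8 at 0.066 and Ndufv1 at 0.059. Ndufa3 was at 0.0060 with equal library totals and 0.0030 with edgeR. Leaving out single libraries changed the sign of 13 uncalled members, whose log2 fold changes ran from -0.019 to 0.10 for Ndufaf5, -0.033 to 0.12 for Ndufc1, -0.14 to 0.017 for Ndufaf6, -0.019 to 0.091 for Ndufs5, -0.12 to 0.19 for Ndufa12-ps, -0.063 to 0.054 for Ndufa3, -0.0400 to 0.039 for Ndufa12, -0.10 to 0.012 for Ndufs6, -0.034 to 0.12 for Ndufs4, -0.065 to 0.016 for Ndufs8, -0.22 to 0.075 for mt-Nd2, -0.54 to 0.27 for mt-Nd4l and -0.28 to 0.057 for mt-Nd4. At a mean of under 20 counts, mt-Nd4l and Ndufa12-ps allow no statement on change.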
